A study of Mus musculus with 26 samples.

Results

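The cytosolic ribosome of the mouse is built from a fixed set of proteins, most of them made from a single active gene, and the genes for these proteins were followed through 10 groups of RNA-seq libraries. Members were the rows of both count tables whose symbol is Rpl or Rps with a number and an optional letter, or Rplp0, Rplp1, Rplp2 or Rpsa, with pseudogene rows written with -ps left out. This rule took 89 of 55291 rows. Of these, 31 are the core proteins of the small subunit and 46 the core proteins of the large subunit. The other 12 rows are the protein-coding paralogs Rpl10l, Rpl22l1, Rpl39l, Rpl3l, Rpl7l1 and Rps27l and the rows Rpl32l, Rpl6l, Rps12l1, Rps3a2, Rps3a3 and Rps4l, to which GENCODE M21 gives a pseudogene type. Rps12l1 had no count in any library. A filter on low counts left 88 members for testing in the rescue table and 86 in the truncation table, where Rpl32l and Rpl6l also dropped out, and all 77 core members were tested in both.

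RNA of the 2 experiments was measured by bulk RNA-seq on rRNA-depleted RNA. The rescue lines are clones of E14 mouse embryonic stem cells (ESCs) in which endogenous CTCF carries an mAID-eGFP degron, OsTIR1(F74G) stands at Rosa26, an Hb9 reporter with mCherry at Mnx1, and a doxycycline-inducible Flag-Halo CTCF transgene at Tigre that is either WT or lacks zinc finger 1 (ΔZF1). Each transgene was studied in 1 clone, and all 4 groups, controls included, received 1 µM 5-Ph-IAA, which degrades the endogenous protein, and 1 µg/ml doxycycline for 24 h. There were 2 libraries each of ESC-WT and NPC-WT and 2 each of ESC-ΔZF1 and NPC-ΔZF1. The truncation experiment used E14 cells and lines derived from them in which eGFP and an SV40 polyadenylation signal (pA) follow the first coding exon of Podxl or Grb10 on both alleles, and E14, Podxl pA and Grb10 pA gave 3 libraries each as ESCs and as neural progenitor cells (NPCs). NPCs were cells after 2 days in N2B27 on laminin without LIF and inhibitors. The study speaks of biological replicates, but nothing used here states that the libraries of a group came from separate cultures, so p-values measure the spread between these libraries only.

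Ribosomal proteins are needed in nearly equal numbers, and cells keep their mRNAs among the most abundant of all. Nearly all of these mRNAs start with a cytidine followed by a run of pyrimidines (the 5′ terminal oligopyrimidine motif), through which mTOR and Larp1 control their translation, while Myc raises their transcription and Polymerase I makes the rRNA they join. Pluripotent stem cells are known for a high output of ribosome components, and for some paralogs, such as Rpl10l and Rpl39l, that are otherwise used mostly in male germ cells.

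Depth was 6425179 to 28730435 counts on genes for a rescue library and 1907505 to 8845087 for one of the truncation experiment. Podxl fell in the Podxl pA lines (log2 fold change −2.73 in ESCs and −3.45 in NPCs), and Grb10 in the Grb10 pA lines (−1.89 and −3.86), as their labels require. The deletion of zinc finger 1 leaves the rest of Ctcf in place, so a gene count cannot check it. Of 10 ESC markers, 9 or 10 fell in every comparison of NPCs with ESCs, and 1 was up-regulated in each line of the truncation experiment. Of the neural progenitor markers tested, 7 of 8 rose in NPC-WT, all 8 in NPC-ΔZF1 and 5 or 6 of 7 in the truncation experiment. In Grb10 pA 1 was down-regulated, and Fabp7 was at 0 in all rescue libraries. Summed normalized counts of the neural list were 2533 to 3378 in NPC-WT and 2819 to 2849 in NPC-ΔZF1, against 817 to 952 in ESC-WT. NPCs of the rescue lines also carried markers of other cells. All 6 surface ectoderm markers rose in both, with summed normalized counts of 53319 to 78180 in NPC-WT and 21491 to 22600 in NPC-ΔZF1 against 3089 to 4550 in ESC-WT. Markers of extraembryonic endoderm rose 6 of 10 in NPC-WT and 10 of 10 in NPC-ΔZF1, with sums of 4969 to 5390 and 39485 to 39765 against 2959 to 3464 in ESC-WT. Of 5 mesoderm markers tested in the rescue lines, none rose. In the truncation experiment all 8 extraembryonic endoderm markers tested rose in each line, from sums of 386 to 475 to 2126 to 2745 in E14, from 463 to 565 to 4004 to 4312 in Podxl pA and from 677 to 726 to 1855 to 2384 in Grb10 pA. Of 6 surface ectoderm markers, 1 to 3 rose and 1 or 2 fell, and sums in NPCs were 663 to 745 in E14, 707 to 746 in Podxl pA and 773 to 834 in Grb10 pA. Of 2 mesoderm markers tested, 1 rose in Grb10 pA and none in the other lines, with sums over the list of 293 to 356 in NPC Grb10 pA against 159 to 174 in NPC E14. What part these markers have in the results on NPCs was not tested. In bulk RNA, fewer cells of a type and less RNA per cell cannot be told apart.

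The start sites of the genes on which the results turn are shown first. Of the 89 members, 64 matched an entry of the RefSeq promoter table (GRCm38, mm10). A run of at least 9 pyrimidines (C or T) on the sense strand was looked for between 50 bases before and 20 bases after each annotated start. A gene counted if any of its starts had one. This held for 38 of the 64 (59.4%), against 22.1% of all 27025 genes with an entry. Over the 250 bases before and 50 after the start, on both strands, CCGGAAG, the core of Ets-type sites, was found in 40.6% of members and 9.93% of all these genes, and ATGGCGG, the core of Yy1 sites, in 17.2% and 4.69%. CACGTG, the E box read by Myc, was found in 9.38% and 8.09%, and TATAAA in 12.5% and 15.7%. None of these strings contains another, and a match is a string of letters, not a bound site. The sequences below run 5′ to 3′ along each gene from 50 bases before to 20 bases after its start, with the longest pyrimidine run in capitals. Rpl10 and its paralog Rpl10l, and Rpl39 and its paralog Rpl39l, are shown because the paralogs changed most. Rpl31 and Rps27 are shown as the members whose response to Grb10 pA differed between cell states, and Rpl13 and Rpl26 as members on the chromosomes that shifted as a whole. The windows are chrX:74270766-74270835 (plus strand) for Rpl10, chr12:66284382-66284451 (minus strand) for Rpl10l, chrX:37085203-37085272 (minus strand) for Rpl39, chr16:10170178-10170247 (plus strand) for Rpl39l, chr1:39367801-39367870 (plus strand) for Rpl31, chr3:90213629-90213698 (minus strand) for Rps27, chr8:123102300-123102369 (plus strand) for Rpl13 and chr11:68901516-68901585 (plus strand) for Rpl26.

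Rpl10: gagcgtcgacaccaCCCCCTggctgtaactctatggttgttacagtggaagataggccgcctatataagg
Rpl10l: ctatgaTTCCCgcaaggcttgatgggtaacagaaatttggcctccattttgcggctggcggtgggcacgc
Rpl39: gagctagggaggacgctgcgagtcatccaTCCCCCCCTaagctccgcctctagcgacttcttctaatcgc
Rpl39l: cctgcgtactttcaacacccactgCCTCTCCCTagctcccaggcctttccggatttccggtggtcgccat
Rpl31: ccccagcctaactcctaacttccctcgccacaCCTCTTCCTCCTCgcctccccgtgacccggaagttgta
Rps27: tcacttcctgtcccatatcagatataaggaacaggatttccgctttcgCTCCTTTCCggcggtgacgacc
Rpl13: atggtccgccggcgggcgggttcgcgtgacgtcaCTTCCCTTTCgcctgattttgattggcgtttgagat
Rpl26: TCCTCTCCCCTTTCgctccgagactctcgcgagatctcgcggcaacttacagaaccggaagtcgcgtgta

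In Rps27 the run of 9 pyrimidines crosses the annotated start, whereas the run of 13 in Rpl31, whose protein lies at the mouth of the exit tunnel, and the run of 10 in Rpl13 end before it. The longest runs of Rpl10 and its retrogene Rpl10l are 6 and 5 bases, and Rpl39 and Rpl39l each have a run of 9. Rpl10l is annotated as a single exon at chr12:66283379-66284401 (minus strand).

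Ribosomal protein genes have many processed copies in the genome, so reads can be shared. Of the stretches of 50 bases, the read length, in the longest GENCODE M21 transcript of each member, a median of 47.4% also occur in another annotated gene. In 41 members at least 50% are shared, in 11 at most 10%, and in 3 none. How reads that map to several places were counted is not given in the sources used here, and strand was not used, so values of members with a high share, and of the 20 members with exons that overlap a gene of the other strand, are uncertain. The shared part is 7.6% for Rpl10l and 0 for Rpl39l, 16.5% for Rpl39, 47.4% for Rpl26, 79.3% for Rpl19 and 80.3% for Rpl13.

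Between 2.42% and 4.35% of all counts on genes fell on the 89 members. In the rescue lines the share was 3.44 and 3.51% in ESC-WT, 3.63 and 3.51% in ESC-ΔZF1, 2.42 and 2.79% in NPC-WT and 2.91 and 2.97% in NPC-ΔZF1. Both NPC groups lay below both ESC groups, and NPC-ΔZF1 lay above NPC-WT without overlap. In E14 cells the share was 3.77, 3.83 and 4.07% as ESCs and 3.73, 3.85 and 3.67% as NPCs, which overlap. Podxl pA gave 3.98, 4.29 and 3.89% as ESCs and 3.51, 3.62 and 3.40% as NPCs, and Grb10 pA 3.86, 4.35 and 3.90% and 3.93, 3.50 and 3.58%, so the NPC libraries were below the ESC libraries in Podxl pA and overlapped them in Grb10 pA. Members with an Rps symbol, paralogs and other rows included, took 44.4% to 45.7% of the members' counts in every group.

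**Figure D1:**
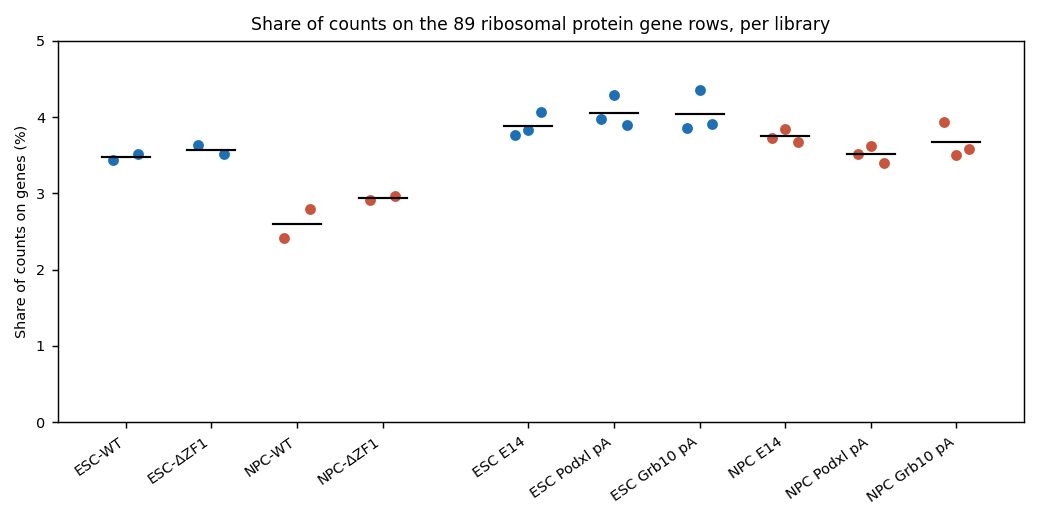
Share of all counts on genes, in %, taken by the 89 ribosomal protein gene rows. Each point is a library (blue, ESCs; red, NPCs), bars are group means, and the rescue lines (left) and the truncation experiment (right) are separate tables. NPC-WT libraries sit lowest at 2.42% and 2.79%, and ESCs and NPCs lie close together in the truncation experiment.

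Levels were also compared between members as RPKM, which scales counts by the exon length of a gene and by the depth of its library. In ESC-WT, the core members had a median of 178 RPKM. Rpl32 was highest at 994 RPKM, followed by Rpl4 at 983 and Rpl8 at 953. Rps10, Rpl24 and Rpl30 were lowest, at 5.31, 17.2 and 27.9 RPKM. ESC E14 cells gave the same 3 lowest members, and Rplp1 (1534 RPKM), Rpl4 (1057 RPKM) and Rps15 (1035 RPKM) as the highest. The 3 lowest members share 56.8% (Rps10), 81.7% (Rpl24) and 79.2% (Rpl30) of their 50-base stretches with other genes, and Rps10 overlaps a readthrough gene with Nudt3. What part of their low level comes from shared reads was not tested.

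Differentiation of the WT rescue line was compared first, as NPC-WT against ESC-WT. Of the 88 members tested, 34 were down-regulated (an adjusted p up to 0.05 by edgeR's quasi-likelihood test, with a change of 0.5 or more on the log2 scale) and 0 up-regulated, where 19.9% and 22.0% of all 16641 genes tested were. At any fold change, 57 fell and 0 rose, against 23.7% of all genes that fell. No member rose at an unadjusted p under 0.05 either, and DESeq2 called 31 members at the same cutoffs. The median log2 fold change of the members was −0.45, where that of all genes was 0.01. Both NPC-WT libraries lay below both ESC-WT libraries for 67 of 88 members, which holds for 35.3% of all genes. Both subunits took part, with 14 of 31 small subunit genes (median −0.46) and 15 of 46 large subunit genes (median −0.43) down-regulated.

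The members did not fall alike. Rpl39, a very small protein of the large subunit that lines the exit tunnel, had 2278 and 2258 normalized counts in ESC-WT and 1315 and 852 in NPC-WT (log2 fold change −1.06 ± 0.17 SE, adjusted p = 0.000649). Its NPC libraries differ from each other but stay below both ESC libraries. Rpl37 went from 3542 and 4126 to 2091 and 2148 normalized counts, a log2 fold change of −0.86 ± 0.11 (adjusted p = 0.000117). Rpl32, also of the large subunit, went from 16454 and 17102 to 10031 and 9365 (−0.79 ± 0.10, adjusted p = 0.000102), and its 2 NPC values are close together. Among small subunit genes, Rps20 fell most, from 12311 and 11465 to 6741 and 7604 normalized counts (−0.73 ± 0.10, adjusted p = 0.000321). Rpl23 (−0.82), Rpl28 (−0.79), Rpl27 (−0.78), Rpl31 (−0.76), Rps7 (−0.72) and Rps4x (−0.62) fell too. At the other end, Rpsa, the laminin receptor protein, had 14017 and 14745 normalized counts in ESC-WT and 12290.5 and 18538 in NPC-WT, so the groups overlapped. Of the core members, Rps14 showed the widest gap between the NPC-WT libraries, 7931 and 14837, against 11715 and 12258 in ESC-WT.

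These 2 NPC-WT libraries were not alike. Relative to the mean of ESC-WT, the median member lay at −0.52 (log2) in replicate 1 and −0.37 in replicate 2, and at −0.22 and −0.19 in NPC-ΔZF1. Without replicate 1 or replicate 2 of NPC-WT, the median fall stayed between −0.52 and −0.36.

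**Figure D2:**
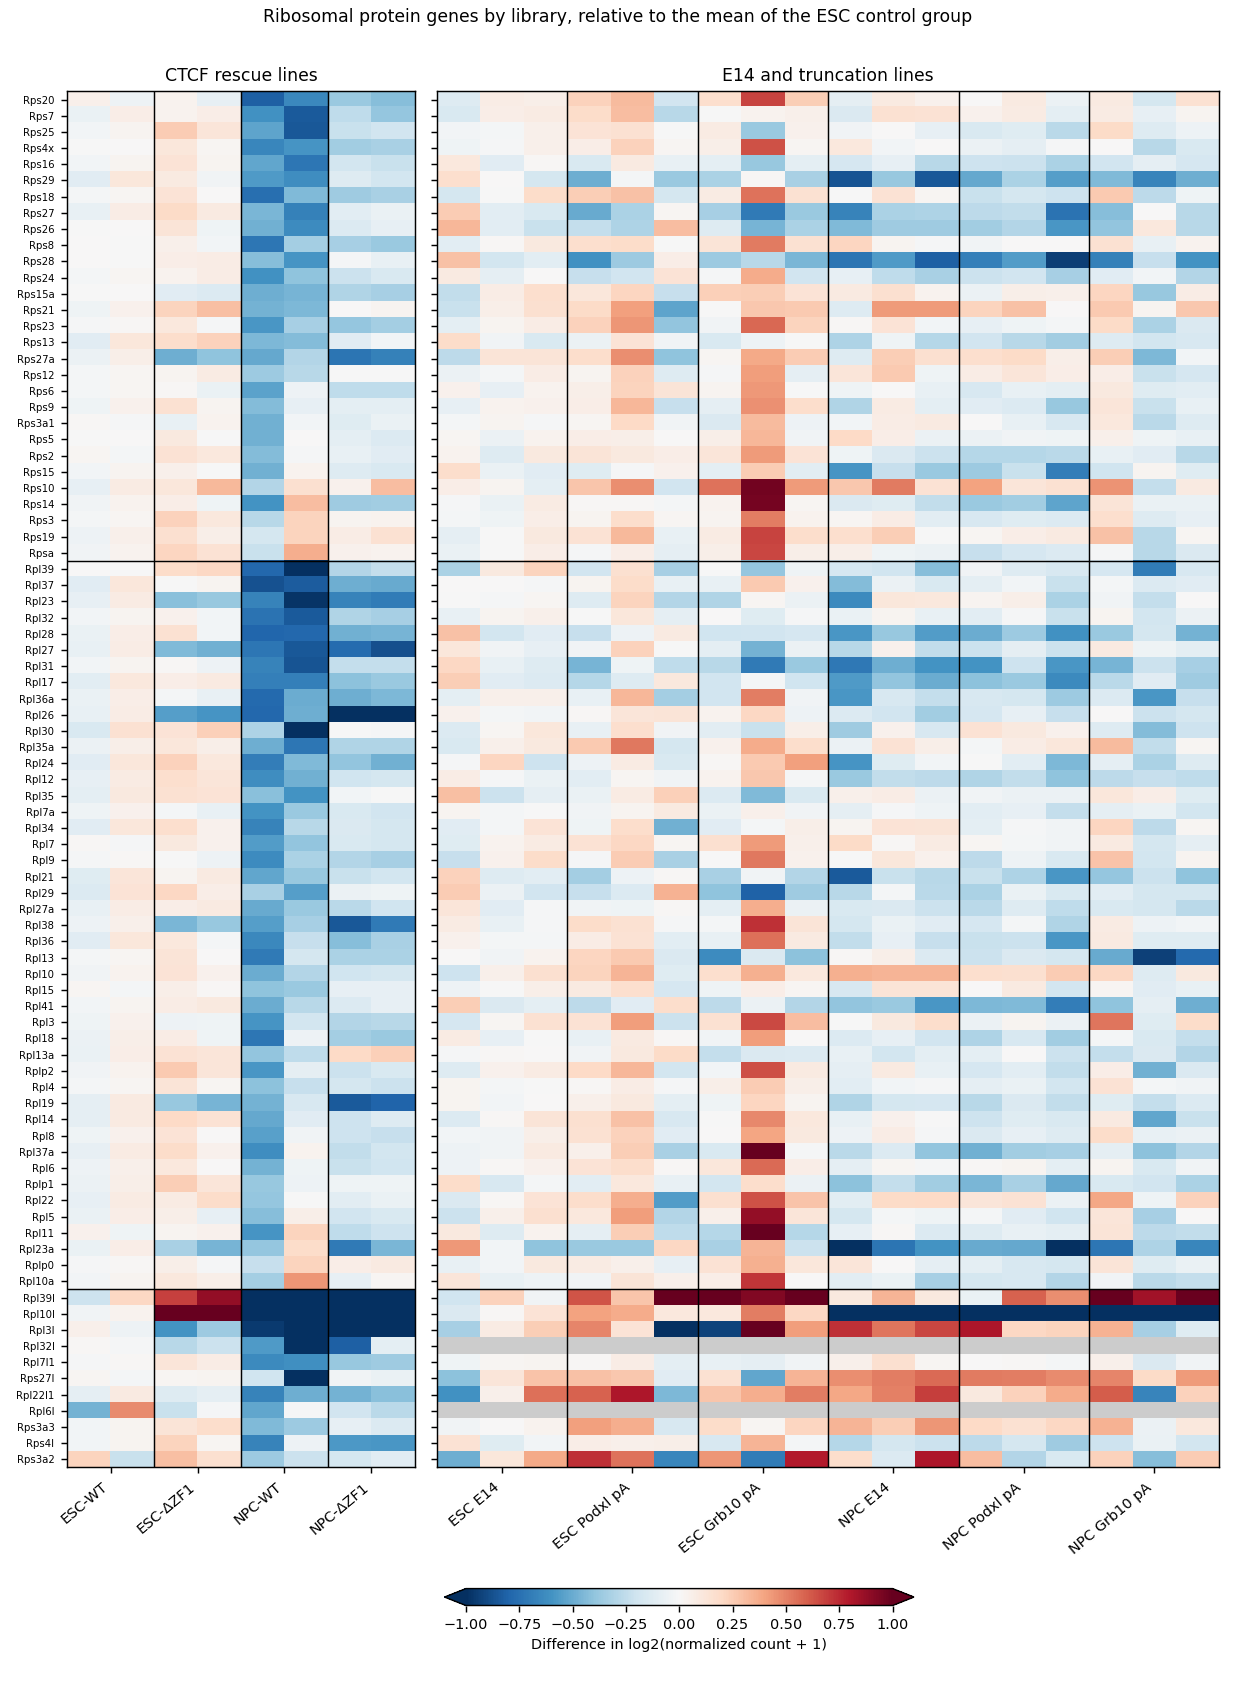
Each row is a ribosomal protein gene, with a few left out (small subunit, large subunit, then paralogs and other rows) and each column a library, with colour for the log2 difference of its normalized count (plus 1) from the mean of the ESC control group of the same table (ESC-WT or ESC E14), clipped at −1 and 1. Grey rows were not tested. NPC-WT is blue for most rows, the chromosome 11 members Rpl19, Rpl23, Rpl23a, Rpl26, Rpl27, Rpl38 and Rps27a are blue in ESC-ΔZF1, and replicate 2 of ESC Grb10 pA stands out in red.

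NPC-ΔZF1 against ESC-ΔZF1 gave 7 down-regulated and 0 up-regulated members, beside 16.9% and 20.4% of all genes. At any fold change 30 fell (all genes, 20.6%) and none rose, also at an unadjusted p under 0.05, and DESeq2 called 6. The median was −0.27. Although few passed the cutoffs, 80 of 88 members had both NPC libraries below both ESC libraries (all genes, 39.1%). Beside the paralogs described below, the down-regulated members were Rps4l (−0.70), Rpl24 (−0.60), Rpl28 (−0.54) and Rpl37 (−0.51). Rpl37 went from 3803 and 3901 to 2724 and 2693 normalized counts (−0.51 ± 0.10, adjusted p = 0.00292), and Rpl24 from 363 and 334 to 236 and 222 (−0.60 ± 0.15, adjusted p = 0.00877). In both the NPC libraries lie below the ESC libraries and close together. Rpl39 fell short of the fold cutoff (−0.46 ± 0.17, adjusted p = 0.0442), and so did Rps4x, the X-linked protein of the small subunit (−0.40 ± 0.09, adjusted p = 0.00616). With each library of these groups left out in turn, the median stayed between −0.31 and −0.25.

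The effect of ΔZF1 was then read within each cell state. In ESCs, 1 member was up-regulated and 1 down-regulated, beside 1.29% and 2.33% of all genes. The median was 0.06. Rpl10l was the member that rose and is described with the paralogs. Rpl26, a large subunit protein near the exit tunnel, had 8901 and 9868 normalized counts in ESC-WT and 6409 and 6236 in ESC-ΔZF1 (log2 fold change −0.57 ± 0.12 SE, adjusted p = 0.0307). Rpl27 also fell, from 2337 and 2578 to 1809 and 1761 (−0.46 ± 0.11, adjusted p = 0.0427), short of the fold cutoff. With any 1 of the 4 ESC libraries left out, neither Rpl10l nor Rpl26 passed, and 0 members were called.

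Rpl26 and Rpl27 share chromosome 11 with Rpl19, Rpl23, Rpl23a, Rpl38 and Rps27a. In ESC-ΔZF1 against ESC-WT the log2 fold changes of these 7 ran from −0.57 (Rpl26) to −0.40 (Rpl23a), and 5 of them did not pass the test. Rpl38, known for its part in the translation of Hox mRNAs, is an example with 4273 and 4593 and 3233 and 3410.3 normalized counts (−0.42 ± 0.11, adjusted p = 0.0705). Rps27a, which is made as a fusion with ubiquitin, had 7038 and 7649.8 and 5218 and 5545 (−0.45 ± 0.11, adjusted p = 0.0504). The median of the 7 was −0.43, that of the 1319 other genes tested on chromosome 11 was −0.46, and that of the 81 members elsewhere was 0.07. The shift of these members was of the size of the shift of their whole chromosome. What lowers the chromosome was not tested.

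The same comparison was made in NPCs. Of 88, 4 were up-regulated and 1 down-regulated, beside 7.19% and 10.5% of all genes. A fit of the 2 NPC groups alone left none of these 5 calls (adjusted p from 0.0532 for Rpl39l to 0.0956 for Rpl19). At any fold change 22 rose and 2 fell (all genes, 8.97% and 12.0%). The median was 0.18, with 74 of 88 above 0. Among small subunit genes the median was 0.26 and 13 of 31 rose, and among large subunit genes it was 0.16 and 8 of 46 rose. Among the small subunit genes that rose were Rps7, Rps12, Rps13, Rps16, Rps20, Rps21, Rps25, Rps26, Rps27, Rps28 and Rps29, with log2 fold changes from 0.32 (Rps12) to 0.48 (Rps21). In NPC-WT against ESC-WT, which shares the NPC-WT libraries, the log2 fold changes of these genes lay between −0.73 (Rps20) and −0.32 (Rps12).

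Rpl39 rose most among core members, from 1315 and 852 to 1853 and 1918 normalized counts (log2 fold change 0.79 ± 0.17 SE, adjusted p = 0.00962), with both NPC-ΔZF1 libraries still below the ESC-WT values above. Rpl13a, a large subunit protein that also silences inflammatory mRNAs, went from 1392 and 1532 to 2098 and 2154 (0.54 ± 0.10, adjusted p = 0.00595), and Rpl31 from 1269.7 and 1109 to 1711 and 1717 (0.52 ± 0.10, adjusted p = 0.00746). Rps27 rose short of the fold cutoff, from 3879 and 3333 to 4947 and 5086 (0.48 ± 0.11, adjusted p = 0.0147). The NPC-ΔZF1 libraries were close to each other for each of these genes and above both NPC-WT libraries, while the NPC-WT libraries were wider apart. Rpl19, which helps bridge the subunits, was the member that fell past both cutoffs, from 6733 and 8380.1 to 5226 and 5363 (−0.51 ± 0.12, adjusted p = 0.017), and Rpl26 fell as well (−0.40 ± 0.12, adjusted p = 0.0356). Both lie on chromosome 11, where the 7 members had a median of −0.34, the other genes −0.57 and the members elsewhere 0.21. Rpl23 did not follow its chromosome, with 4087 and 3292 in NPC-WT and 4079.6 and 3997 in NPC-ΔZF1. Rpl27 overlapped as well, with 1488 and 1366 in NPC-WT and 1440 and 1334 in NPC-ΔZF1.

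How far the members rose in NPC-ΔZF1 rests on which NPC-WT library it is set against. Without replicate 1 of NPC-WT the median was 0.05, and without replicate 2 it was 0.30. This comparison and that of NPC-WT with ESC-WT share the NPC-WT libraries. A contrast of all 4 groups tested whether ΔZF1 had another effect in NPCs than in ESCs. No member passed (all genes, 1.59% higher and 1.11% lower), DESeq2 called 1, and the median difference was 0.17. At an unadjusted p under 0.05, 16 were higher and 1 lower. The share of all genes at that p is not given here, so no direction is read from these counts. Without NPC-WT replicate 1 or replicate 2 the median differences were 0.07 and 0.24, and without ESC-WT replicate 2 the median was 0.09.

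In the truncation experiment, each line was compared with E14 in the same state. Podxl pA changed no member past the cutoffs in either state by edgeR or by DESeq2. In ESCs 0.0829% of all genes were up-regulated and 0.256% down-regulated, and in NPCs 0.384% and 0.166%, so these comparisons call few genes of any kind. At an unadjusted p under 0.05, with the share of all genes not given here, 3 members were higher and 3 lower in ESCs. In NPCs 1 was higher and 0 lower. The medians were 0.05 and −0.07. Members had log2 fold changes of −0.31 to 0.57 as ESCs and of −0.32 to 0.23 as NPCs.

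Grb10 pA changed some members in both states. In ESCs, 2 members were up-regulated and 2 down-regulated, beside 4.51% and 4.58% of all genes, with a median of 0.12. Rpl29, of the large subunit, went down from 513, 411 and 375 normalized counts in E14 to 324, 245 and 335 in Grb10 pA (log2 fold change −0.52 ± 0.13 SE, adjusted p = 0.00856), without overlap. Rps10 went up from 54.9, 53.5 and 48.9 to 76.7, 103 and 70.7 (0.63 ± 0.20, adjusted p = 0.0291), a call lost in 6 of 14 alternatives, among them DESeq2 (adjusted p = 0.0532), the fit of these 2 groups alone (0.066), the fit without any 1 of the 3 E14 libraries (0.0627 to 0.0851) and that without Grb10 pA replicate 2 (0.135). In NPCs, 1 member was up-regulated and 1 down-regulated, beside 7.90% and 8.64% of all genes, with a median of −0.0022. Rpl13 went from 3531, 3659.8 and 3194 to 2475, 1836 and 2044 (log2 fold change −0.71 ± 0.11 SE, adjusted p = 2.89e-05), without overlap, and fell in ESCs as well (−0.38 ± 0.11, adjusted p = 0.0188). The other up-regulated member in ESCs, and the 1 in NPCs, was Rpl39l, described with the paralogs. Podxl pA and Grb10 pA are set against the same E14 libraries.

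Rpl13 lies on chromosome 8. The 729 genes tested on this chromosome that are not ribosomal protein genes had a median log2 fold change of −0.49 in ESC Grb10 pA and −0.48 in NPC Grb10 pA. What lowers this chromosome in the line was not tested. Both Grb10 pA groups come from this line, so ESCs and NPCs do not give separate evidence on it.

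A single library of ESC Grb10 pA stood apart. Relative to the mean of ESC E14, the median member lay at −0.01, 0.33 and 0.03 in replicates 1, 2 and 3. Rpl11 had 1156, 2932 and 1155 normalized counts in the 3 libraries, Rpl37a 1026, 2689 and 1136, and Rps14 3301, 6257 and 3255. Replicate 2 was highest each time, and the other 2 were close to each other. Without it, the median of ESC Grb10 pA against E14 was 0.0043 in place of 0.12, with 3 members called. Without replicate 1 or 3, 9 and 7 members were called, and without replicate 1 of ESC E14 1 was.

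Differentiation in the truncation experiment was read in 3 lines. NPC E14 against ESC E14 gave 6 down-regulated and 0 up-regulated members, beside 16.3% and 16.5% of all genes, with a median of −0.05. At any fold change 16 fell and 3 rose (all genes, 23.7% and 23.0%). DESeq2 called 7. Rpl23a had 577, 420.1 and 322 normalized counts in ESCs and 148, 257 and 281 in NPCs (log2 fold change −0.95 ± 0.23 SE, adjusted p = 0.00152), and its ESC libraries differ widely. Rps28 went from 1479.8, 1064 and 1127 to 728, 816 and 687 (−0.71 ± 0.14, adjusted p = 0.000162) and Rps29, a zinc-binding protein of the small subunit head, from 1151, 1028 and 906 to 562, 788 and 569 (−0.67 ± 0.13, adjusted p = 0.000104). Rpl31 (−0.60) and Rpl28 (−0.52) were the other core members past the cutoffs. The 3 members that rose did so short of the fold cutoff, and were Rps27l, Rps3a3 and Rpl10. Rpl10, which sits near the catalytic centre, went from 1468, 1751 and 1893 to 2165, 2148 and 2143 (0.34 ± 0.11, adjusted p = 0.00968). The difference between these values and those of the WT rescue line was not tested, since the tables were fitted separately, and the lines differ in genotype, treatment and clone.

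In Podxl pA, 2 members were down-regulated and 0 up-regulated between ESCs and NPCs (all genes, 14.7% and 17.1%), and 23 fell at any fold change (all genes, 23.0%). The median was −0.19. Rpl23a, with 330.2, 330.1 and 493 normalized counts in ESCs and 301, 299 and 154 in NPCs (−0.58 ± 0.23, adjusted p = 0.0424), was called beside Rpl10l, and NPC replicate 3 is the lowest of its libraries. Without replicate 3 of either state 1 member was called, and without ESC replicate 1, 5 were. In Grb10 pA, 2 were down-regulated and 0 up-regulated (all genes, 17.4% and 17.2%), 24 fell at any fold change (all genes, 25.6%), and the median was −0.19. Rpl37a was the call beside Rpl10l (−0.74 ± 0.21, adjusted p = 0.00414). Its NPC values of 1072, 859 and 932 overlap the ESC values above, and without replicate 2 of ESC Grb10 pA its log2 fold change was −0.16 and the median of the members −0.0565, with 1 member called. Without replicate 1 or 3 of that group, 12 and 10 members were called, and without replicate 1 of NPC Grb10 pA 7 were.

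Whether a line changed the step from ESC to NPC was tested as a difference of differences. For Podxl pA no member passed (all genes, 0.0678% higher and 0.0301% lower), also by DESeq2, and the median was −0.12. At an unadjusted p under 0.05, with the share of all genes not given here, 2 were higher and 4 lower. For Grb10 pA, 2 members passed higher and 0 lower (all genes, 2.86% and 3.04%), with a median of −0.15. Rpl31 had 998, 819 and 789.7 normalized counts in ESC E14, 527, 614 and 572 in NPC E14, 715, 528 and 669 in ESC Grb10 pA and 625, 744 and 687 in NPC Grb10 pA (difference 0.69 ± 0.17 on the log2 scale, adjusted p = 0.0152 by edgeR). It was lower in NPCs than in ESCs in E14 without overlap, but not in Grb10 pA. Rps27 had 1543, 1206 and 1165 in ESC E14, 814, 1039.8 and 1045 in NPC E14, 1026, 794 and 998 in ESC Grb10 pA and 965, 1296 and 1067 in NPC Grb10 pA, again without overlap between states in E14 and with overlap in Grb10 pA (difference 0.66 ± 0.20, adjusted p = 0.0478). The count of 2 became 6 without replicate 1 of ESC Grb10 pA, 4 without its replicate 3 or NPC Grb10 pA replicate 1, and 0 without replicate 1 of ESC E14. It was 1 without any library of NPC E14, replicate 2 of ESC E14, replicate 2 of ESC Grb10 pA or replicate 2 or 3 of NPC Grb10 pA.

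**Figure D3:**
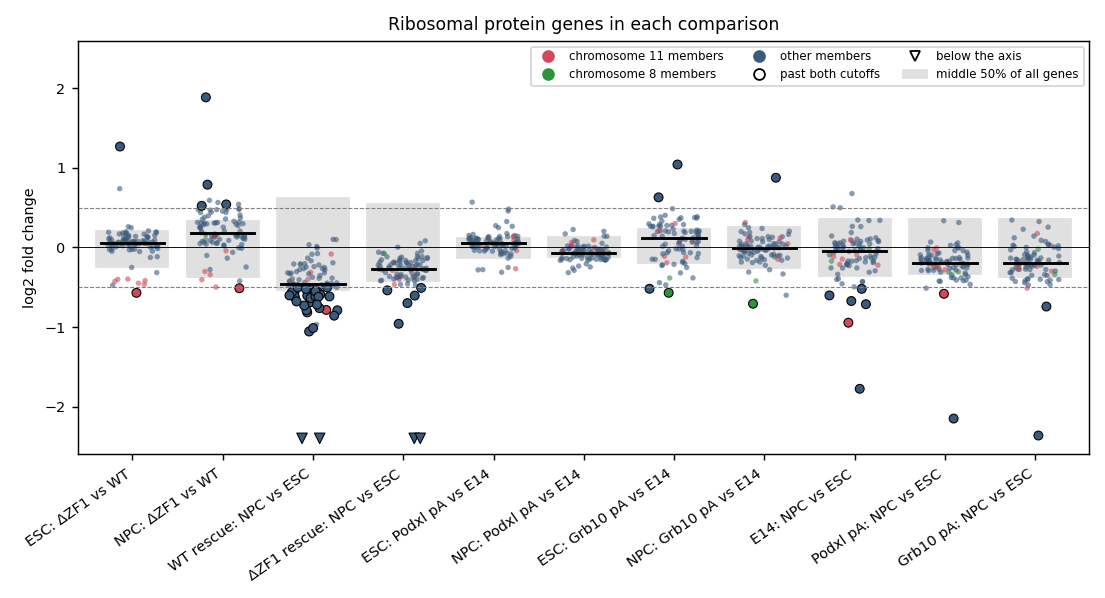
Log2 fold change (vertical axis) of every ribosomal protein gene tested in 11 comparisons, 1 point a gene, with black bars for medians, grey boxes for the middle 50% of all genes tested and dashed lines at the fold cutoff of 0.5. Red points are the 7 members on chromosome 11 and green points those on chromosome 8, outlined points passed both cutoffs, and triangles are Rpl10l and Rpl39l below the axis. The members lie lowest in NPC against ESC of the WT rescue line (median −0.45).

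Paralogs of core members gave the largest changes. Rpl10l, the retrogene that takes over from X-linked Rpl10 in male germ cells, had 787 and 827 normalized counts in ESC-WT, 68.0 and 124 in NPC-WT, 1975 and 1924 in ESC-ΔZF1 and 103 and 108 in NPC-ΔZF1. All NPC libraries lay far below all ESC libraries, and ESC-ΔZF1 lay above ESC-WT. The mean was 8.39-fold lower in NPC-WT than in ESC-WT (log2 fold change −3.14 ± 0.22 SE, adjusted p = 3.12e-06) and 18.5-fold lower in NPC-ΔZF1 than in ESC-ΔZF1 (−4.21 ± 0.21, adjusted p = 4.94e-07). ESC-ΔZF1 was 2.42-fold above ESC-WT (1.27 ± 0.19, adjusted p = 0.0125), while in NPCs ΔZF1 and WT did not differ past the test (0.21 ± 0.23, adjusted p = 0.551), and the difference between the effects did not pass (−1.06 ± 0.29, adjusted p = 0.0979). In E14, Rpl10l had 279, 311 and 339 normalized counts as ESCs and 83.0, 81.2 and 110.0 as NPCs, 3.38-fold lower (−1.78 ± 0.15, adjusted p = 1.09e-10). The fall was 4.38-fold in Podxl pA and 5.27-fold in Grb10 pA. It was the only member down-regulated in all 5 comparisons of NPCs with ESCs, and its call there held in every alternative run.

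Set against its parent on the scale of normalized counts, Rpl10l was 10.8 and 10.7% of Rpl10 in ESC-WT, 23.9 and 24.9% in ESC-ΔZF1, 1.28 and 2.04% in NPC-WT and 1.58 and 1.63% in NPC-ΔZF1. In E14 the share was 19.0, 17.8 and 17.9% as ESCs and 3.83, 3.78 and 5.14% as NPCs. Rpl10 itself had 7302 and 7704 normalized counts in ESC-WT and 5321 and 6108 in NPC-WT (−0.39 ± 0.10, adjusted p = 0.0106), a far smaller change than that of the paralog. Per exon length, ESC-WT had 45.0 RPKM of Rpl10l and 209 RPKM of Rpl10.

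Rpl39l, the paralog of Rpl39 in the exit tunnel, was sparse in every group. Counts before normalization were 35 and 109 in ESC-WT and 8 and 3 in NPC-WT, and normalized counts 94.3 and 125 and 5.98 and 4.55. NPC-WT was 20.9-fold lower (log2 fold change −4.33 ± 0.33 SE, adjusted p = 4.99e-06), and NPC-ΔZF1, with 21.1 and 20.1 against 175 and 201 in ESC-ΔZF1, 9.12-fold lower (−3.18 ± 0.23, adjusted p = 3.16e-06). Within NPCs, Rpl39l was 3.92-fold higher in ΔZF1 than in WT (1.89 ± 0.38, adjusted p = 0.00742), and in ESCs its change did not pass (0.74 ± 0.21, adjusted p = 0.0848). In E14 no such step was seen, with 30.5, 41.5 and 34.4 normalized counts as ESCs and 37.7, 44.9 and 37.7 as NPCs (0.19 ± 0.23, adjusted p = 0.536). It was higher in Grb10 pA than in E14 in both states, with 79.7, 67.6 and 74.0 as ESCs (1.04 ± 0.21, adjusted p = 0.00102) and 87.1, 63.9 and 71.0 as NPCs (0.88 ± 0.20, adjusted p = 0.00151). No Grb10 pA library overlapped an E14 library, and both calls held in all 14 alternatives. In Podxl pA ESCs the values were 55.0, 43.0 and 74.5 (0.57 ± 0.22, adjusted p = 0.402). Relative to Rpl39, Rpl39l was 10.9, 11.1 and 8.41% in ESC E14 and 22.8, 25.3 and 21.8% in ESC Grb10 pA, and 4.14 and 5.55% in ESC-WT and 0.455 and 0.534% in NPC-WT.

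Rpl3l, the striated muscle paralog of Rpl3, was near the limit of counting, with 16 and 35 counts in ESC-WT and 28 and 13 in NPC-WT from libraries of unequal depth. Its fall in NPC-WT (−1.01 ± 0.32, adjusted p = 0.0246) was lost in 7 of 12 alternatives. Rpl7l1, which acts in the making of the large subunit, fell from 4583 and 4655 to 2968 and 3024 in the WT rescue line (−0.62 ± 0.09, adjusted p = 0.00037), and in E14 it had 1023, 1070.2 and 1074 as ESCs and 1091, 1179 and 1071 as NPCs, which do not differ beyond their spread (0.08 ± 0.07, adjusted p = 0.4). Rpl22l1, which Rpl22 holds down in many cells, went from 887 and 1001 to 593 and 673 in the WT rescue line (−0.58 ± 0.12, adjusted p = 0.00303). Without ESC-WT replicate 2 its log2 fold change was −0.49. In E14 its mean went the other way, from 22.0 RPKM in ESCs (SD 9.11) to 30.7 in NPCs (SD 3.21), short of a call. The ESC libraries of E14 varied widely. An edgeR fit of these 2 E14 groups alone put it past the cutoffs (0.52, adjusted p = 0.0239). Rps27l, a target of p53, had 2655 and 2586 in ESC-WT and 2284 and 1108 in NPC-WT, whose 2 libraries disagree (−0.62 ± 0.25, adjusted p = 0.065), and rose in E14 NPCs from 347, 502 and 559.7 to 634, 656 and 681 (0.50 ± 0.15, adjusted p = 0.00804). The rows Rps3a2, Rps3a3 and Rps4l share 90.2%, 65.2% and 14.9% of their 50-base stretches with other genes, so reads of the first 2 in particular may be split between copies.

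**Figure D4:**
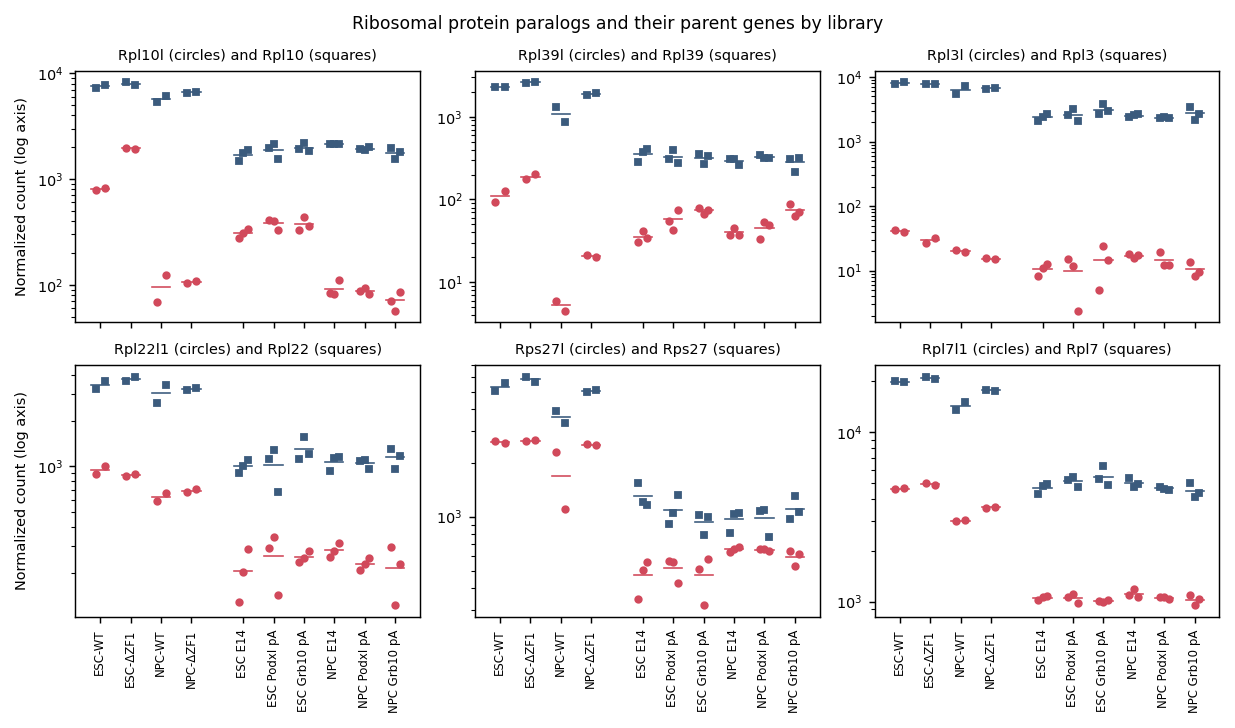
Normalized counts, on log axes, of 6 ribosomal protein paralogs (red circles) and their parent genes (blue squares), with 1 point a library and lines at group means. The rescue lines and the truncation experiment were normalized separately. Rpl10l drops from ESCs to NPCs in all 5 lines, and Rpl39l drops in both rescue lines and is higher in Grb10 pA than in E14.

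The P stalk of the large subunit, which recruits the factors of elongation, is made of Rplp0, Rplp1 and Rplp2. None was past the cutoffs in any comparison. Rplp0 had 12890.4 and 13143 normalized counts in ESC-WT and 11098 and 15186 in NPC-WT (0.01 ± 0.14, adjusted p = 0.946), so the groups overlapped. Rplp1 fell short of the fold cutoff in E14 NPCs, from 4083, 3220.3 and 3559 to 2705, 3055 and 2831 (−0.34 ± 0.10, adjusted p = 0.00478), and in Podxl pA NPCs (−0.41 ± 0.10, adjusted p = 0.000895). Rpl5 and Rpl11 join 5S rRNA in the particle that binds Mdm2 when ribosome assembly fails. Rpl11 had 3839 and 3604 in ESC-WT and 2465 and 4341 in NPC-WT, the second a wide gap between libraries, and Rpl5 3564 and 3907 and 2778 and 3894. Neither passed in that comparison (Rpl11, −0.13 ± 0.21, adjusted p = 0.624, and Rpl5, −0.17 ± 0.15, adjusted p = 0.383).

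Other genes of the pathway were read from lists of 51 factors of ribosome biogenesis, 31 translation factors, 15 genes of Polymerase I, 13 noncoding hosts of snoRNAs and 28 genes of growth control that were tested in the rescue lines. All protein genes of the mitochondrial ribosome and short protein-coding genes (exons up to 1500 bases) served as comparators. In NPC-WT against ESC-WT, 39 of 77 mitochondrial ribosomal protein genes (median −0.55), 19 of 51 biogenesis factors (median −0.37), 8 of 31 translation factors and 5 of 15 Polymerase I genes tested were down-regulated, and none of these was up-regulated, beside 34 of 88 members and 19.9% of all genes. Of 849 short genes 296 were down-regulated and 113 up-regulated (median −0.37), so other short genes lay below 0 as well. Examples are Nop10 (−1.64) and Dkc1 (−1.16) of the H/ACA particle, the translation initiation subunits Eif2s2 (−1.93) and Eif2s1 (−0.90), and Rrn3 (−1.23), which brings Polymerase I to the rRNA genes. The noncoding hosts of snoRNAs had 4 of 13 down-regulated, with Snhg8 (−1.12) and Snhg6 (−1.09) lowest. Growth control genes moved both ways, 6 up-regulated and 4 down-regulated of 28, beside 22.0% and 19.9% of all genes. Myc (1.81) and the Max partner Mxd4 (3.25) rose, and Mxi1 (−1.44) and the mTOR inhibitor Deptor (−1.16) fell. Of the ribosomal proteins whose symbols fall outside the rule, Rpl36al fell (−0.97 ± 0.19, adjusted p = 0.00195) and Rack1 fell short of the fold cutoff (−0.35), while Fau (−0.14) did not pass.

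In E14, NPCs had 7 of 51 biogenesis factors up-regulated and 0 down-regulated (median 0.25), beside 16.5% and 16.3% of all genes, among them Ddx21 (0.77 ± 0.08, adjusted p = 3.97e-09), a helicase of rRNA processing, and Utp20 (0.64). Myc (2.76) and Mxd4 (2.53) rose and the cell cycle inhibitor Cdkn1a fell (−1.90). The medians of the mitochondrial list (−0.02), of translation factors (0.09) and of short genes (−0.09) lay beside −0.05 for the members. Of 12 noncoding snoRNA hosts, 2 were down-regulated in E14, 3 in Podxl pA and 6 in Grb10 pA, beside 16.3%, 14.7% and 17.4% of all genes, with medians of −0.31, −0.34 and −0.46.

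In NPC-ΔZF1 against NPC-WT, the noncoding hosts of snoRNAs, many of which carry the same pyrimidine start as the members, had 9 of 13 up-regulated, beside 7.19% of all genes, and a median of 0.66, with Epb41l4aos (1.07 ± 0.24, adjusted p = 0.0133) and Snhg6 (0.77 ± 0.22, adjusted p = 0.0356) leading. Dkc1 (0.79) and Nop10 (1.09) rose and Ftsj3 fell (−0.71) among biogenesis factors. Tpt1, whose mRNA is also of the pyrimidine class, rose (0.51 ± 0.11, adjusted p = 0.0117), as did Mycn (0.95 ± 0.15, adjusted p = 0.00202), while Rptor (−0.89), the mTORC1 subunit, and Larp1 (−0.54) fell. Rptor and Larp1 lie on chromosome 11, whose genes shifted as a whole. The effect of ΔZF1 on Nop10 (difference 1.07 ± 0.24, adjusted p = 0.0443) and Mycn (0.98 ± 0.21, adjusted p = 0.0363) was larger in NPCs than in ESCs. How these calls on genes outside the members depend on the NPC-WT libraries was not tested, since the alternative fits were read for members only. The medians of mitochondrial ribosomal protein genes and short genes were 0.04 and 0.02, beside 0.18 for the members. In ESC-ΔZF1, 3 of 51 biogenesis factors were down-regulated, beside 2.33% of all genes. These were Pes1 (−0.59), Utp6 (−0.55) and Npm1 (−0.50), all of chromosome 11. Of 77 mitochondrial ribosomal protein genes, 8 were down-regulated and 0 up-regulated (median −0.16). No gene of the translation, snoRNA host or Polymerase I lists passed. NPC Grb10 pA had 5 of 51 biogenesis factors down-regulated, beside 8.64% of all genes, led by Nip7 (−0.86 ± 0.09, adjusted p = 7.37e-08) and Rrs1 (−0.76 ± 0.14, adjusted p = 0.000148), and 3 of 15 Polymerase I genes, led by Taf1c (−1.21 ± 0.13, adjusted p = 1.72e-07). Of these, Nip7 and Taf1c lie on chromosome 8.

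**Figure D5:**
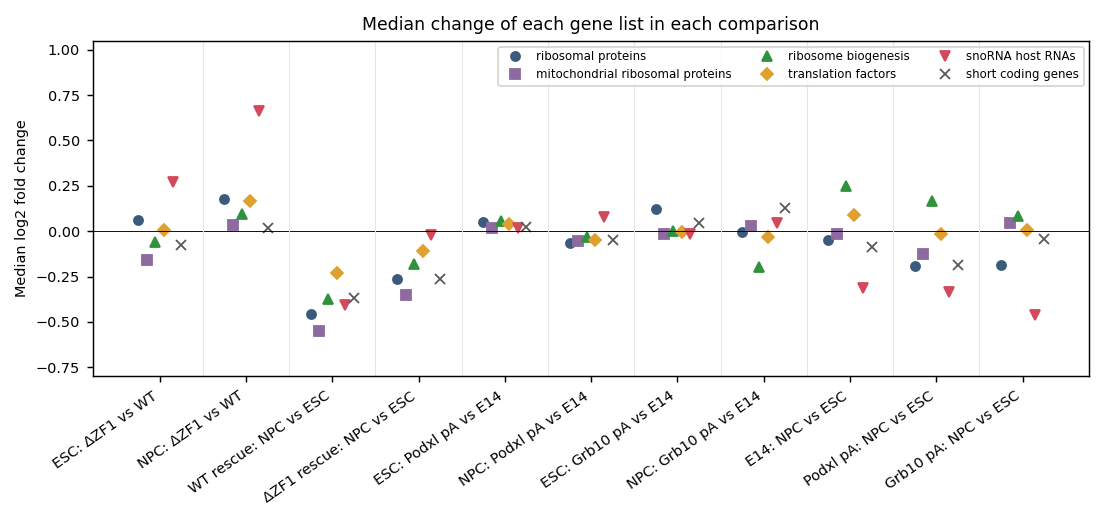
Median log2 fold change (vertical axis) of the ribosomal protein genes and 5 other gene lists in 11 comparisons, 1 marker a list. In NPC against ESC of the WT rescue line all 6 medians lie below 0, and in NPCs the noncoding snoRNA hosts have the highest median under ΔZF1 (0.66).

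Core members were also split by features that the rule did not use, as a description with no test. A pyrimidine run of at least 9 counted anywhere in the window searched around the start. Such a run can end well before the start, as in Rpl26 and Rps16, so this does not separate genes by the terminal oligopyrimidine motif. Core members without a RefSeq promoter entry were left out of the splits by run and by CCGGAAG. In NPC-ΔZF1 against NPC-WT, the 34 with such a run had a median of 0.25 and the 23 without 0.14. The 23 with CCGGAAG had 0.26 and the 34 without 0.15. The 18 with exons that overlap a gene of the other strand had 0.31 and the 59 without 0.16. In NPC-WT against ESC-WT, the medians with and without the run were −0.45 and −0.39. The 36 members with at least 50% of stretches shared had −0.44 and the 41 others −0.45. Members with exons up to 1781 bases, the core median, had −0.50 and longer ones −0.39.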

How the data were processed

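RNA-seq libraries of the CTCF rescue lines (8) and of E14 and the truncation lines (18) were read as 2 tables of raw counts per gene symbol. Per the labels and the methods of the study, the authors aligned paired 50-base reads to mm10 with STAR and counted them with featureCounts without strand before the counts were deposited. Versions, the counting annotation and the treatment of reads that map to several places are not given in the sources used here. Of the value columns, 3 matched no sample and were not used. No batch is given.

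Each table was fitted as a whole with edgeR 4.0.16 in R 4.3.3 (TMM factors, filterByExpr, quasi-likelihood F test on group means without a replicate term), with p-values adjusted by the Benjamini-Hochberg method over all 16641 or 13268 genes tested. Up- and down-regulated mean an adjusted p up to 0.05 with a change of 0.5 or more on the log2 scale, and rose and fell mean the adjusted p alone. A normalized count is a count divided by its TMM-scaled library size and multiplied by the mean of those sizes over the table. The SE is the log2 fold change divided by the root of its F statistic. DESeq2 1.42.0, RLE factors, other filters, other cutoffs, a replicate block and leaving out each library were run as alternatives, and the scripts were tested on simulated counts. Intervals on counts are not given, and the depth of the truncation libraries limits the precision of sparse members such as Rpl39l and Rpl3l.

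The members, the gene lists and the tests were chosen with earlier results of these data known. Members named with values were those with the largest changes without overlap of libraries and at least 100 normalized counts on average, all past both cutoffs where there were up to 10, the paralogs with their parents, the P stalk and 5S particle members, and those of chromosomes 11 and 8. Other members named were chosen after their values were seen, and a few members are counted but not reported here by name. Start sites came from RefSeq (GRCm38) and transcripts, exon lengths and gene types from GENCODE M21, in which 96.4% of the symbols were found.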

Additional observations from a re-analysis of the deposited data

Results flagged for a closer look

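For 2 members the step from ESC to NPC differed between Grb10 pA and E14 by a test of the difference itself. Rpl31 had a difference of 0.6932 ± 0.17 on the log2 scale (SE, adjusted p = 0.0152 by edgeR), and lost its call in 1 of 20 alternatives. Rps27 had a difference of 0.6619 ± 0.20 (adjusted p = 0.0478), and lost its call in 11 of 20. The ESC and NPC libraries of E14 did not overlap for either gene, and those of Grb10 pA did for both.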

How the results depend on the processing

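No named member past the cutoffs in the main fit changed direction under any alternative. A change of sign was not looked for in members short of the cutoffs. Of the log2 fold changes of named members, 5052 kept their side of the cutoffs, 75 came to pass them and 84 no longer did. The median of the members moved or turned where only the 11 members with at most 10% of shared stretches were read, to 0.0539 for the ΔZF1 effect in NPCs minus that in ESCs and to 0.0801 for NPC E14 against ESC E14. The cause was not tested. Counts of members past the cutoffs depended more on the settings. An adjusted p of 0.01 left 0 for ESC-ΔZF1 against ESC-WT, 1 for Podxl pA differentiation and 0 for the Grb10 pA difference of differences. With no filter on low counts, the count was 8 for NPC-ΔZF1 against NPC-WT, 1 for the ΔZF1 difference between states, 2 for the Podxl pA difference and 6 for that of Grb10 pA. A fit of the 2 groups compared alone gave 0 for NPC-ΔZF1 against NPC-WT. Core members alone gave 1 for ESC-ΔZF1, 3 for ΔZF1 differentiation and 1 each for NPC Grb10 pA and for Podxl pA and Grb10 pA differentiation. Without members of chromosome 11, 1 was left for ESC-ΔZF1, and without those of chromosome 8, 1 for NPC Grb10 pA. DESeq2 gave 1 for the ΔZF1 difference and 1 for Podxl pA differentiation, which RLE factors and a minimum of 10 counts also brought to 1. Total counts without TMM gave 1 for the Grb10 pA difference.

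Leaving out 1 library at a time gave 0 calls for ESC-ΔZF1 against ESC-WT (medians 0.03 to 0.1244), 1 to 21 for NPC-ΔZF1 against NPC-WT (0.0547 to 0.3028), 25 to 47 for WT differentiation (−0.5224 to −0.3619), 3 to 11 for ΔZF1 differentiation, and 0 to 13 for the ΔZF1 difference (0.0713 to 0.2394). For ESC Grb10 pA it gave 1 to 9 (0.0043 to 0.1637), for Podxl pA differentiation 1 to 5, for Grb10 pA differentiation 1 to 12 (−0.2516 to −0.0565), and for the Grb10 pA difference 0 to 6 (−0.2308 to −0.0214). Samples with the same replicate number did not deviate together (correlations of −0.0896 to 0.132), so the numbers do not pair them. With a replicate block the Grb10 pA difference had 1 call, since Rps27 no longer passed. Rps27l came to pass in WT differentiation, and no other call of a named member changed.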

Other observations

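The 2 NPC-WT libraries differed from each other, and ESC Grb10 pA replicate 2 from the other 2 of its group, in some of the same members. The difference of NPC-WT replicate 2 from replicate 1, and that of ESC Grb10 pA replicate 2 from the mean of the other 2, were set side by side on the log2 scale for the 77 core members. Rpl11, of the 5S particle, had differences of 0.82 and 1.34, Rpl37a of 0.65 and 1.32, and Rps14 of 0.90 and 0.93. All 3 were higher in replicate 2 in both. Rpl10a (0.78 and 0.68), Rpl5 (0.49 and 0.79) and Rpsa (0.59 and 0.61) were too. Of the 10 members with the highest difference in each, 6 were shared. Across the 77 genes, Pearson's r was 0.79 and Spearman's rho 0.752. Genes are not independent replicates, the libraries belong to different tables and share none, and the pattern was chosen after the values were seen, so this is a description with no test, and its cause was not tested.

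The X chromosome holds 4 members, Rpl10, Rpl36a, Rpl39 and Rps4x, and each has an autosomal copy among the genes described. In NPC-WT against ESC-WT the X-linked genes had log2 fold changes of −0.39 (Rpl10), −0.64 (Rpl36a), −1.06 (Rpl39) and −0.62 (Rps4x), and the autosomal copies Rpl10l, Rpl36al, Rpl39l and Rps4l −3.14, −0.97, −4.33 and −0.33. The copy's value lay lower than that of its X-linked parent in 3 of these 4 pairs, and not for Rps4l. In NPC E14 against ESC E14, the copies had −1.78, −0.28, 0.19 and −0.23 and their parents 0.34, −0.31, −0.26 and 0.03, so the copy lay lower for Rpl10l and Rps4l. These pairs were singled out after their values were seen, and the differences within them were not tested.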
